A study of Mus musculus with 27 samples.

Results

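PDGFRα-sorted fibroblasts of the newborn mouse heart were compared with the whole heart at the same age, postnatal day 1, to find the genes that are enriched in and depleted from the sorted cells. The members were chosen by label: 3 fibroblast libraries and 3 whole-heart libraries of day 1, which are 6 of the 27 libraries of the series. The other libraries come from 4 older ages, and those of 4 weeks were used here for a single comparison. All mice were C57Bl/6, with no transgene, treatment or injury named for these groups in the sample labels or the paper. The design text of the series speaks of myocardial infarction, and the sample labels were followed. The fibroblasts were released from minced ventricles, after removal of the atria and valves, by warm digestion with liberase, a collagenase blend, and were then flow sorted for PDGFRα. The heart RNA was taken from heart tissue, and the paper describes no digestion for it. Whether the atria were removed first is not given in the sources used here. The digestion and sort can therefore not be told apart from the cell type in any value given here.

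Cardiac fibroblasts lay down and remodel the extracellular matrix of the heart. They carry the receptor PDGFRα, and the transcription factor TCF21 marks the epicardium-derived lineage from which most of them arise. Collagens I and III form the interstitial fibrils, fibronectin and periostin connect the cells to them, and lysyl oxidases cross-link them. Around birth the heart moves from glycolysis towards fatty acid oxidation, its cardiomyocytes leave the cell cycle, and fibroblasts multiply and deposit matrix. Whole heart contains fibroblasts as well as cardiomyocytes, endothelial cells, mural cells, leukocytes and blood. A gene that is lower in fibroblasts takes a smaller share of their RNA than of the heart's, and in bulk RNA fewer cells of a type and less RNA per cell cannot be told apart.

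The 6 libraries were deep, with 63750869 to 74710723 counted reads in the fibroblasts and 65549640 to 66186366 in the hearts. Levels are given as CPM, read counts divided by library size, after TMM scaling, and every group has n = 3. Fibroblast libraries were less alike (Pearson's r of log2 CPM across genes 0.851 to 0.856) than heart libraries (0.911 to 0.947), and a fibroblast and a heart library reached 0.697 to 0.746. They also had counts for fewer genes, 15842 to 16203 against 17501 to 19208. Among the 22855 genes, 793 had at most 3 counts in one fibroblast library and at least 200 in another, against 34 such genes in the hearts. A further 4352 genes had no count in any of the 3 fibroblast libraries, 41 of them with at least 200 counts in every heart library. How far a value near zero in the fibroblasts rests on such unevenness was not tested. Each of the 6 libraries held both Xist (154 to 451 CPM) and Ddx3y (6.33 to 40.8 CPM), transcripts of female and male cells, and the groups overlapped for each.

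Of 16004 genes with enough counts to test, 3103 (19.4%) were higher and 3448 (21.5%) were lower in fibroblasts at an adjusted p below 0.05 (edgeR quasi-likelihood test, Benjamini-Hochberg adjustment). Both directions together made up 40.9% of the genes tested, and the counts of list members below are to be read beside these shares. Over all genes tested the median on the log2 scale was -0.08. Depletion ran deeper than enrichment: 1055 genes were lower by at least 16-fold and 169 were higher by as much. Many deep losses rested on very few reads, since 723 of the lower genes (21.0%) had at most 9 counts over the 3 fibroblast libraries together and 466 had none. Among the 348 genes with at least 500 CPM in one of the groups, 181 were higher, 135 were lower and 32 were not called. The CPM values of fibroblast and heart libraries did not overlap for 57% of all genes tested (25.4% with the fibroblasts higher and 31.7% with them lower). Absence of overlap was thus common in this comparison. Where it is given for a gene below, it is to be read beside that share.

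**Figure D1:**
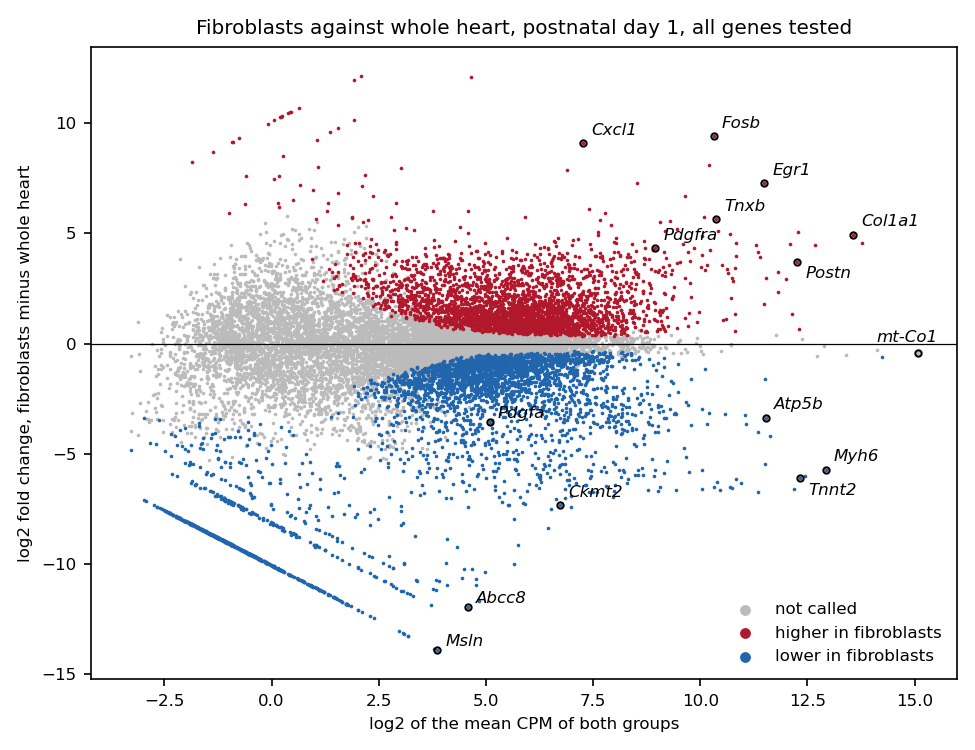
Log2 fold change of fibroblasts against whole heart (y axis, positive when higher in fibroblasts) against mean level (x axis, log2 CPM) for each gene tested; colours mark the 3103 genes called higher and the 3448 called lower. The straight diagonal streaks at the lower left are genes with 0, 1 or a few counts in the fibroblasts, and among genes of high level Fosb, Egr1 and Col1a1 stand at the upper edge.

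The markers followed the labels. Pdgfra (chr5:75152292-75198215, mm10), the receptor used for the sort, stood at 902, 878 and 1055 CPM in the fibroblast libraries and at 59.0, 41.9 and 40.5 CPM in the hearts. The lowest fibroblast library was far above the highest heart, a log2 difference of 4.33 ± 0.20 (SE, adjusted p = 4.91e-06). Since the cells were sorted on its product, this is a check and not a finding. Col1a1 (chr11:94936224-94953042), the α1 chain of collagen I, stood at 18879, 26662 and 25001 CPM in the fibroblasts and at 638, 920 and 738 CPM in the hearts, 4.94 ± 0.25 higher on the log2 scale (adjusted p = 6.00e-06). Tcf21 (chr10:22817281-22820174) was at 418, 280 and 288 CPM against 46.1, 31.6 and 38.4 CPM, again with every fibroblast library above every heart. All 16 fibroblast markers were higher, with a median log2 fold change of 3.25. The smallest difference was that of Pi16, a marker of the perivascular and adventitial fibroblast state, at 32.8, 33.4 and 33.9 CPM in fibroblasts and 11.7, 8.54 and 14.0 CPM in hearts, a log2 difference of 1.55 ± 0.25. The heart's level of these 16 markers was a median of 10.5% of the fibroblasts' level, from 3.25% for Col1a1 to 34.2% for Pi16.

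Cardiomyocyte genes were lower throughout. Myh6 (chr14:54941921-54966927), the adult α-myosin heavy chain, stood at 18173, 13692 and 13903 CPM in the hearts and at 330, 221 and 319 CPM in the fibroblasts, 5.72 lower on the log2 scale (SE 0.26, adjusted p = 4.59e-06). Tnnt2, cardiac troponin T, was at 11594, 9586 and 9216 CPM in hearts and 163, 128 and 145 CPM in fibroblasts. The groups were far apart for both genes. All 27 cardiomyocyte markers were lower (median log2 fold change -6.13), with values from -7.33 for Ckmt2, the mitochondrial creatine kinase of striated muscle, to -3.66 for Atp2a2, the SERCA2 calcium pump, which has a form that most cells use. They took 10.4, 9.57 and 9.14% of all counts in the hearts and 0.156, 0.148 and 0.158% in the fibroblasts. Their transcripts were thus low but present in the sorted fraction, at a median of 1.42% of the heart level with a narrow middle range (quartiles 1.05 and 1.84%). Whether the fibroblasts themselves make them was not tested. The part that cardiomyocyte RNA plays in other fibroblast values was not tested. Red cell genes were lower as well, 4 of 6 tested, with summed levels of 10.8 to 28.8 CPM against 629 to 824 CPM, although α- and β-globin genes have near-identical copies whose reads cannot be assigned with confidence.

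**Figure D2:**
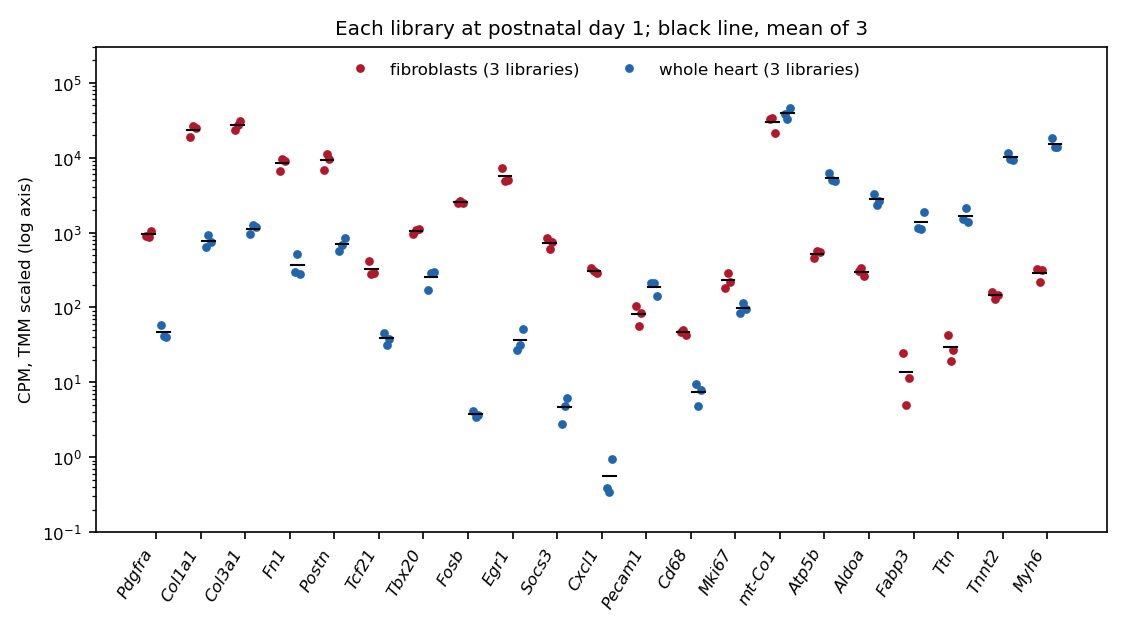
CPM of 21 genes (x axis) in each of the 6 libraries on a log axis; points are single libraries and short lines are group means (n = 3). Pdgfra, Col1a1 and the immediate early genes are higher in all 3 fibroblast libraries, Myh6 is higher in all 3 hearts, and mt-Co1 is a gene whose groups overlap.

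Endothelial and mural markers had smaller differences than those of cardiomyocytes. Of 15 endothelial markers, 8 were lower and 1 was higher, with a median log2 fold change of -1.21 (13 lower under a filter of 10 counts in every sample). Pecam1, the adhesion molecule CD31, stood at 105, 56.2 and 84.6 CPM in fibroblasts and at 215, 210 and 144 CPM in hearts, a log2 difference of -1.21 (SE 0.26, adjusted p = 0.00716). Cdh5, the VE-cadherin gene, was at 201, 111 and 82.7 CPM against 222, 308 and 182 CPM, which overlap, and was not called (adjusted p = 0.0824). Tek, the angiopoietin receptor TIE2, was the endothelial marker that was higher, by 1.09 ± 0.20. Summed over the list, endothelial markers reached 617 to 955 CPM in fibroblasts and 1054 to 1535 CPM in hearts, 55.6% of the heart level. Endothelial transcripts were thus present in the sorted fraction, and their part in the values below was not tested.

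Mural cell genes divided. Of 12 markers, 8 were lower and 2 were higher (median -1.62). Acta2, smooth muscle α-actin, which marks smooth muscle cells and also the myofibroblast state, stood at 37.8, 166 and 98.0 CPM in fibroblasts and at 1202, 1212 and 686 CPM in hearts, a log2 difference of -3.36 (SE 0.52, adjusted p = 0.00153). Each fibroblast library was well below every heart, though the fibroblast libraries themselves differed widely. Rgs5, a pericyte regulator of G-protein signalling, was lower by 2.5 on the log2 scale and Myh11, smooth muscle myosin, by 2.17. Both genes that were higher encode receptors. Notch3 stood at 334, 564 and 513 CPM against 49.6, 77.3 and 53.1 CPM, a log2 difference of 2.97 ± 0.26, and Pdgfrb, which pericytes and many fibroblasts use to sense PDGF-B, was higher by 1.56 ± 0.15. Tagln, an early smooth muscle protein, was not called (-0.41).

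Epicardial markers also went both ways. Of 10 markers, 2 were higher and 3 were lower, near the shares of all genes tested (19.4% higher and 21.5% lower). Aldh1a2, the retinaldehyde dehydrogenase that makes retinoic acid in the epicardium and its derivatives, stood at 297, 312 and 337 CPM in fibroblasts and 16.7, 28.2 and 35.4 CPM in hearts (3.56 ± 0.28), and Tbx18, a transcription factor of the same lineage, was higher by 1.89 ± 0.23. Wt1, which marks the epicardial sheet, did not differ beyond its spread (means of 18.8 and 17.5 CPM, with overlapping libraries, adjusted p = 0.856). Genes of the differentiated surface mesothelium were near or at zero in the fibroblasts: Msln, mesothelin, had no count in any of the 3 libraries and 22.7, 43.5 and 20.8 CPM in the hearts, at least 624-fold lower when each fibroblast library is set to a floor of 3 counts. Muc16, the membrane mucin that binds mesothelin, was also at 0, at least 97.8-fold lower. The number of epicardial markers called lower ranged from 3 to 6 when 1 library was left out (6 without fibroblast library 1) and was 0 under a filter of 10 counts in every sample, which removes genes at zero.

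Few leukocyte markers were called in either direction. Of 14 macrophage and leukocyte markers 3 were higher and 1 was lower (median 0.49), beside 19.4% and 21.5% of all genes tested. Cd68, a lysosomal protein of macrophages, stood at 47.2, 50.3 and 43.1 CPM in fibroblasts and 9.41, 4.76 and 7.93 CPM in hearts (2.67 ± 0.29, adjusted p = 0.000231). Csf1r, the receptor for macrophage colony-stimulating factor, was at 64.7, 26.6 and 30.3 CPM against 16.9, 19.5 and 16.2 CPM, with no overlap, and Mrc1, the mannose receptor, was higher by 1.16. Ptprc, the pan-leukocyte CD45 gene, had 11.4 CPM in 1 fibroblast library and none in the others. Summed over the list, the level was 186 to 394 CPM in fibroblasts and 150 to 179 CPM in hearts, and 1 marker was higher rather than 3 without heart library 3, but 7 with an offset for exonic length. The call of Csf1r was lost without any 1 of the heart libraries (adjusted p = 0.0690 to 0.0974). The number of these markers that were lower was 2 without fibroblast library 1 or 3. Of 6 glial markers 1 was higher and 1 was lower, and 3 were lower without fibroblast library 2 and none under the filter of 10 counts in every sample. No fat cell gene passed the count filter. Valve and cartilage genes numbered 5 higher of 10 (median 1.72, and 3 higher in a fit of all 27 libraries), led by Cilp, a matrix protein of cartilage (3.78), and Sox9, the transcription factor of cartilage and of heart valve mesenchyme, at 193, 170 and 144 CPM against 6.90, 16.9 and 15.5 CPM. None of them was lower, but 1 or 2 were when a single fibroblast library was left out.

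Collagens were among the most abundant transcripts of the sorted fibroblasts. Fibrillar collagens took 6.34, 7.47 and 7.92% of all counts in the fibroblast libraries and 0.262, 0.367 and 0.302% in the hearts, means of 7.25 ± 0.817% and 0.311 ± 0.0528% (SD, exact two-sided permutation p = 0.1, the smallest that 3 against 3 allows). Of 11 genes 9 were higher and none was lower (median log2 fold change 4.48). Col3a1, the homotrimer chain of collagen III, stood at 23504, 26864 and 30505 CPM against 950, 1245 and 1177 CPM. Col1a2 had 10643, 13103 and 13953 CPM against 493, 630 and 567 CPM, and Col5a1, whose collagen nucleates the fibrils of collagen I, had 8285, 10128 and 10472 CPM against 272, 347 and 237 CPM. All fibroblast libraries lay above all hearts for these 3 genes. Divided by the joint length of all annotated exons, Col1a1 had a mean level of 3583 CPM per kb in fibroblasts, Col3a1 2746 and Col1a2 1011. That length joins the exons of all transcripts of a gene and can exceed the transcript that is made. The order of these genes therefore depends on the length used. Without division by length, Col3a1 stood above Col1a1 in each fibroblast library. Col2a1 and Col11a2, collagens of cartilage, were not called and were at mean levels of 1.68 and 9.97 CPM in fibroblasts.

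Of 21 other collagens 13 were higher, none was lower and 8 were not called (median 3.16). Col6a6, an α chain of the beaded filament collagen VI, was at 1152, 876 and 1109 CPM in fibroblasts and 20.7, 24.3 and 23.4 CPM in hearts (5.52 ± 0.18), the largest fold among the collagens listed. Col6a1 (4.49), Col6a3 (4.90), Col12a1 (4.52) and Col14a1 (4.54), the last pair being collagens that attach to fibril surfaces, were close to one another. Basement membrane genes were more mixed, with 12 of 22 higher and 2 lower (median 1.22). Col4a1 and Col4a2, the chains found in nearly all basement membranes, were higher by 2.93 ± 0.23 and 2.96 ± 0.22, and Col15a1, a collagen at the border of basement membrane and interstitium, by 4.95 ± 0.36. Lama2, the laminin chain that surrounds muscle fibres, stood at 1401, 1215 and 1526 CPM against 114, 104 and 97.2 CPM. The 2 that were lower were Lama5, a laminin chain of epithelial and vascular basement membranes (32.1, 32.0 and 28.8 CPM against 86.3, 101 and 71.0 CPM), and Col4a5, an α chain restricted to some basement membranes (-0.94, short of a 2-fold minimum). Leaving out fibroblast library 2 gave 4 that were lower. Col4a3, Col4a4 and Col4a6 were not called.

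The machinery that folds, modifies and cross-links collagen moved almost as a block, with 28 of 32 genes higher and none lower (median 2.30). Folds were smaller than for the collagens themselves. Among enzymes outside the cell, Loxl1, a lysyl oxidase needed for elastic fibres, was at 1771, 1444 and 1525 CPM against 67.5, 103 and 97.1 CPM (4.14 ± 0.21), and Adamts2, which trims the N-terminal propeptide of fibrillar procollagens, was higher by 4.35 ± 0.25. Within the endoplasmic reticulum, Plod2, a lysyl hydroxylase, was higher by 2.27 and Serpinh1, the collagen chaperone HSP47, by 1.41. Prolyl 4-hydroxylase subunit P4ha1 was at 129, 128 and 130 CPM against 18.0, 16.6 and 22.0 CPM. Of 9 small leucine-rich proteoglycans, which bind collagen fibrils and set their diameter, 6 were higher and none lower (median 3.40): Bgn stood at 3115, 2662 and 2822 CPM against 299.6, 254 and 259.7 CPM, and Dcn at 2811, 2379 and 2917 CPM against 198, 197 and 291 CPM. Fmod, fibromodulin, was not called (0.98, adjusted p = 0.0748).

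Matricellular proteins, fibronectin and elastic fibre genes were higher in 28 of 37 cases and lower in 4 (median 3.11). Fn1, fibronectin, stood at 6642, 9524 and 8952 CPM in fibroblasts and 299, 517 and 279 CPM in hearts (4.52 ± 0.31). Postn, periostin, which matures collagen fibrils and rises in activated fibroblasts, was at 6782, 11024 and 9674 CPM against 558, 683 and 850 CPM (3.72 ± 0.26). Thbs1, thrombospondin 1, an activator of latent TGF-β, had 1281, 2618 and 2463 CPM against 44.1, 29.9 and 46.4 CPM, with a wide spread among the fibroblast libraries but no overlap. Tnxb, tenascin X, was higher by 5.65 ± 0.26, Fbn1, the microfibril protein fibrillin 1, by 4.57 ± 0.24 and Eln, elastin, by 2.08 ± 0.16. Those that were lower were Emilin2, Smoc1, Wisp1 and Thbs4 (-1.80, -1.78, -1.58 and -1.17), which also encode secreted proteins. Without heart library 1 the lower genes numbered 2, with Smoc1 no longer called (adjusted p = 0.0578), and the call of Wisp1 was lost in the fit of all 27 libraries (adjusted p = 0.155). Ctgf and Spp1 were not called (-0.97 and -1.08).

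Matrix proteases were mostly higher, 19 of 28, with 1 lower (median 2.45). Mmp2, gelatinase A, was at 2513, 1947 and 2410 CPM against 137, 115 and 108 CPM, and its membrane-bound activator Mmp14 was higher by 3.32 ± 0.17. Adamts12, Adamts4, Adamts5 and Adamts1, proteases that cut proteoglycans or other matrix proteins, were higher by 4.75, 4.33, 3.97 and 3.36. The gene that was lower was Mmp15, a membrane-type protease (47.1 against 202 CPM, -2.10), and 2 were lower without fibroblast library 2. Among the inhibitors, Timp2 was higher by 2.31, whereas Timp1 (13.0, 24.9 and 20.5 CPM against 13.1, 16.7 and 13.4 CPM), Timp3 and Timp4 did not pass the test, and the libraries overlapped for Timp1 and Timp3.

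In the PDGF family receptors were higher and a ligand was lower in fibroblasts. Pdgfra, Pdgfrb and the receptor-like Pdgfrl were the 3 genes of 7 that were higher. Pdgfa, a ligand of PDGFRα, stood at 3.72, 6.17 and 6.18 CPM in the fibroblasts and 67.3, 58.0 and 62.4 CPM in the hearts, a log2 difference of -3.55 (SE 0.26, adjusted p = 2.91e-05). Pdgfb ran the same way but with uneven fibroblast libraries (9.70, 0.0328 and 3.84 CPM against 26.1, 39.9 and 32.7 CPM) and was not called (adjusted p = 0.0979). The lower genes numbered 1, and 2 without fibroblast library 2 or in the fit of all 27 libraries. Pdgfc and Pdgfd were below 10 CPM in both groups and were not called.

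Of 39 genes of TGF-β and BMP signalling 27 were higher and 2 lower (median 1.41). The ligands Tgfb3 and Tgfb2 were higher by 2.76 ± 0.16 and 2.23 ± 0.20, and Tgfb1 by 0.76 ± 0.20. The receptor Tgfbr2 stood at 311, 208 and 257 CPM against 104, 81.9 and 72.6 CPM, a smaller separation than that of the matrix genes. Fstl1, a secreted glycoprotein related to follistatin, was the most abundant member at a mean of 3064 CPM in fibroblasts (2.82). The 2 genes that were lower are BMP ligands, Bmp10, a factor of the trabecular and atrial myocardium (0.0973 against 16.0 CPM), and Bmp7 (0.453 against 46.1 CPM), whereas the ligands Bmp4, Bmp2 and Bmp6 were higher, by 2.58, 2.91 and 2.20. Bmp10 lost its call in the fit of all 27 libraries (adjusted p = 0.0773), and neither ligand is tested under a filter of 10 counts in every sample. Chrd was also higher, but its call was lost without heart library 3 (adjusted p = 0.0623).

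In the Wnt family 18 of 36 genes were higher and 5 lower (median 1.26). Secreted inhibitors made up much of the level: Sfrp1 stood at 647, 424 and 530 CPM in fibroblasts against 80.4, 87.5 and 69.6 CPM in hearts, Frzb was higher by 4.39, Dkk3 by 2.44 and Sfrp2 by 2.74. The receptors Fzd7, Fzd8, Fzd2, Fzd5, Fzd1 and Fzd4 and the co-receptors Lrp5 and Lrp6 were higher by 1.27 to 3.29. Wnt4, Wnt5a and Wnt5b were the ligands that were higher, at mean levels of 16.3 to 25.2 CPM. The genes that were lower were Sfrp5, Lgr6, Fzd6, Wif1 and Lgr4. Of these Sfrp5 had 1 count in the 3 fibroblast libraries together. The lower genes numbered 3 without heart library 1 or 2, and 2 in the fit of all 27 libraries, where the call of Fzd6 was lost (adjusted p = 0.0629).

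Imprinted and insulin-like growth factor genes were among the most abundant transcripts of both groups at this age. Of 21 genes, 16 were higher and 2 lower (median 1.43). Igf2, the fetal insulin-like growth factor, stood at 6344, 7022 and 6035 CPM in fibroblasts and 2396, 3055 and 2233 CPM in hearts (1.34 ± 0.17). H19, the non-coding RNA that shares its imprinting control region, was at 6421, 6677 and 5627 CPM against 4033, 4561 and 3067 CPM (0.68 ± 0.19, adjusted p = 0.0198). The call of H19 was lost without heart library 1 (adjusted p = 0.0646), without heart library 3 (0.0864), in the fit of all 27 libraries (0.0817) and with a 2-fold minimum. Neither gene's groups overlapped, and both differences were small beside that of Dlk1, an imprinted Notch-like protein of mesenchymal progenitors, at 1394, 2482 and 2100 CPM against 114, 151 and 105 CPM (4.01 ± 0.27). Peg3, Zim1 and Meg3, also imprinted, were higher by 3.47, 3.47 and 3.06. Igfbp5, a binding protein, was the abundant member that was lower, at 389, 362 and 333 CPM against 474, 1041 and 510 CPM (-0.90, adjusted p = 0.0425). Heart library 2 was high for it, and the call was lost in 6 of the alternative settings, among them those without heart library 2 or without any 1 of the fibroblast libraries, which left 1 lower gene. That gene was Igfbp2, with no count in the fibroblasts and 0.855 to 4.58 CPM in the hearts.

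Factors addressed to other cells of the heart went both ways, 16 of 34 higher and 7 lower (median 2.04). Of all genes tested 19.4% were higher and 21.5% lower. The guidance ligands Slit3 and Slit2 were higher by 3.94 and 3.60, Csf1, the growth factor of macrophages, by 3.03, and the lymphangiogenic Vegfd and Vegfc by 3.18 and 2.07. In contrast Vegfa, the main angiogenic factor, was lower (127, 142 and 125 CPM against 182, 218 and 246 CPM, -0.71), as was Vegfb (-2.77), the chemokine Cxcl12 (-1.52) and Angpt1, the ligand of TIE2 (-2.41). Fgf1, Fgf13 and Fgf12 were lower, and Fgf2 was higher by 2.00. Nrg1, neuregulin, was below 6 CPM in every library and was not called.

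Of 35 mesenchymal factors 24 were higher and none lower (median 2.29). Besides Tcf21, Klf4 (3.92), Sox9 (3.69), Twist1 (3.39), Snai1 (3.73) and Ebf2 (4.02) were higher, and Prrx1, which marks limb and other mesenchyme, stood at 101, 118 and 116 CPM against 32.6, 37.1 and 42.1 CPM. Twist1 and Snai1 are factors of epithelial-to-mesenchymal transition. Klf4 is also a member of the immediate early and heat shock list below. Fitted values in this list reached 9.98. For 1 gene of the list no heart library had a count, so its fitted fold change is not a measured ratio. Foxd1 was also higher, but its call was lost with a replicate block (9.81, adjusted p = 0.0666). Meis1 and Foxp1 were not called (0.17 and -0.07).

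Of 30 cardiac factors 23 were lower and 1 was higher (median -3.46). Nkx2-5, the homeobox factor of the cardiomyocyte lineage, stood at 2.52, 5.63 and 4.47 CPM in fibroblasts and at 215, 204 and 193 CPM in hearts (-5.60). The factor that was higher was Tbx20, a T-box factor of heart muscle and cushion mesenchyme, at 960, 1088 and 1114 CPM against 172, 287 and 294 CPM (2.07 ± 0.22, adjusted p = 0.000216). Gata4, a partner of both, stood at 328, 230 and 242 CPM against 199, 249 and 256 CPM, so that its groups overlapped, and was not called (0.19, adjusted p = 0.475). Gata6, Mef2c and Hand2 were lower by smaller amounts than Nkx2-5, by 0.75, 0.60 and 1.40 on the log2 scale. Irx1, a factor of the ventricular myocardium and septum, and Hand1, of the left ventricle, had no count in the fibroblasts and were at least 359.8-fold and 76.5-fold lower.

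Immediate early genes, which cells switch on within minutes of a stimulus, led the enriched genes. Genes with clone names and genes under 10 CPM in the fibroblasts left aside, the 12 with the largest rise were Fosb, Cxcl1, Fos, Cxcl2, Egr2, Socs3, Egr1, Il1b, Junb, Il6, Sele and Egr3. Of these, 7 belong to the immediate early and heat shock list and the others are cytokine genes or, for Sele, the adhesion molecule of activated endothelium. Fosb (chr7:19302696-19310051), a subunit of the AP-1 factor, stood at 2485, 2614 and 2503 CPM in fibroblasts and 4.13, 3.41 and 3.62 CPM in hearts, a log2 difference of 9.41 ± 0.19 (adjusted p = 8.68e-07). Fos was at 3221, 2106 and 1710 CPM against 7.71, 8.50 and 9.64 CPM, and Egr1, a zinc finger factor, at 7342, 4840 and 5044 CPM against 26.7, 31.1 and 52.1 CPM. The neutrophil chemokine Cxcl1 had 332, 302 and 289.5 CPM against 0.392, 0.338 and 0.942 CPM. Each of these 4 genes was higher in all 3 fibroblast libraries by more than the whole spread within either group.

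Of the 28 genes of this list 27 were higher and 1, Hspb1, was lower (median log2 fold change 4.13). They took 2.66, 1.90 and 2.07% of the fibroblast counts and 0.125, 0.118 and 0.125% of the heart counts. Among heat shock genes, Hspa1b stood at 8.40, 31.5 and 18.1 CPM against 0.0753, 0.775 and 0.754 CPM and shares near-identical sequence with Hspa1a, so the split of reads between them is uncertain. Hspb1, a small heat shock protein abundant in muscle, was at 14.2, 16.2 and 19.9 CPM against 306, 226 and 201 CPM. The fibroblasts had been through warm digestion and sorting, which the paper does not describe for the heart RNA. The effect of isolation and that of cell type on these genes can therefore not be told apart. Among the genes that came next in size of fold, chosen after their values were seen, were Tnfsf9 (6.02), Nfkbiz (5.91), Nr4a3 (5.76), Thbs1 (5.72), Tnxb (5.65), Irf1 (5.59), Col6a6 (5.52), Svep1 (5.36) and Fndc1 (5.20), with Apol7d (5.74), Cxcl10 (5.29) and Elfn1 (5.23) between them.

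Since these genes moved together, the 250 bases before the transcription start of several are shown, with a cardiac and a collagen gene for contrast (RefSeq, GRCm38.p6, 5′ to 3′ along the gene). Capitals mark 1 motif in each: the TATA box TATAAA in Fos (chr12:85473640-85473889, plus strand), the CArG box core of a serum response element in Zfp36 (chr7:28379229-28379478, minus) and Actc1 (chr2:114052876-114053125, minus), the cyclic AMP response element TGACGTCA in Dusp1 (chr17:26508473-26508722, minus), an NF-kB site in Cxcl1 (chr5:90890995-90891244, plus) and the CCAAT box in Col1a2 (chr6:4505368-4505617, plus).
Fos: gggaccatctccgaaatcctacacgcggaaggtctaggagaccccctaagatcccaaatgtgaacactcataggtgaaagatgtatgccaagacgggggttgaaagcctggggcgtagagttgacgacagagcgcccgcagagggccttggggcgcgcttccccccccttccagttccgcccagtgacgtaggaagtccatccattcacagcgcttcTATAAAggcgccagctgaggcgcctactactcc
Zfp36: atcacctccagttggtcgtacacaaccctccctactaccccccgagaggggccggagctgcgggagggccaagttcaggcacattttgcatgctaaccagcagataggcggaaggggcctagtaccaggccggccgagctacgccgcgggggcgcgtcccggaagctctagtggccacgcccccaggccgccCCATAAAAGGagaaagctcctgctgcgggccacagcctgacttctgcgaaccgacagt
Dusp1: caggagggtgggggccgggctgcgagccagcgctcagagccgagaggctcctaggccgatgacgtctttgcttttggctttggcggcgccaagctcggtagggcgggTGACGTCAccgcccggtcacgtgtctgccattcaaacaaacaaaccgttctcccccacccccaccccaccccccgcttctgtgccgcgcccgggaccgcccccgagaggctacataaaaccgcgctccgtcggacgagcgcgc
Cxcl1: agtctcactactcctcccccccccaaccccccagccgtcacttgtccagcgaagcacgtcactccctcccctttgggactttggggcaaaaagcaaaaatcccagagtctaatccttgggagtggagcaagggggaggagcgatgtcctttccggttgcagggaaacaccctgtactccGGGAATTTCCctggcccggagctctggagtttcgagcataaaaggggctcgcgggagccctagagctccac
Actc1: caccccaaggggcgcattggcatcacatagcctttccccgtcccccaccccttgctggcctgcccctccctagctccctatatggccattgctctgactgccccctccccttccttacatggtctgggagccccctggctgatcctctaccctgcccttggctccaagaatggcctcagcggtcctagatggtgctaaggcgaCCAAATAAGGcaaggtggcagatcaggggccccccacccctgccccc
Col1a2: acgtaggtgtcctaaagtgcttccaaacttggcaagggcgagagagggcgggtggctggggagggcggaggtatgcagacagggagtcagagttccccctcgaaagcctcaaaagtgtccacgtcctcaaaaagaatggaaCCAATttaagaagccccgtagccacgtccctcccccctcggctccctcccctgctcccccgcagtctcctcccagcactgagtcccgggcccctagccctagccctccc

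Motifs were searched on both strands, and a CArG box can contain the letters of a TATA or CCAAT box. The CArG box was found in the window of 2 of 24 immediate early and heat shock genes with a promoter sequence (8.33%), in 5 of 26 cardiomyocyte genes (19.2%) and in 439 of all 27025 promoters (1.62%). The cyclic AMP response element was in 3 of the 24 (12.5%), in none of the 26 cardiomyocyte genes and in 1.77% of all promoters. The TATA box was in 8.33% of the 24 and 14.3% of all, the CCAAT box in 3 of 8 fibrillar collagens (37.5%) and 37.5% of all, and the NF-kB site in none of the 24 and in 0.414% of all promoters. Beside these letters stand the levels: Zfp36, an mRNA decay factor, was at 1932, 774 and 984 CPM against 32.4, 23.2 and 23.7 CPM, Dusp1, a MAP kinase phosphatase, was higher by 3.31 ± 0.32, and Actc1, cardiac α-actin, was at 101, 221 and 194 CPM against 12056, 10535 and 10490 CPM. A match describes the window and does not show that a factor binds there.

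Genes of energy metabolism were lower almost throughout. All 69 nuclear genes of the respiratory chain and ATP synthase that were tested were lower in fibroblasts, with a median log2 fold change of -3.37. Summed, they reached 3717 to 4052 CPM in fibroblasts and 36570 to 44982 CPM in hearts, 9.63% of the heart level. Atp5b, the catalytic β subunit of ATP synthase, stood at 459, 566 and 546 CPM against 6305, 5095 and 4822 CPM (-3.37). The differences were largest for the muscle isoforms of cytochrome c oxidase subunits: Cox6a2 was at 12.4, 10.8 and 6.36 CPM against 1285, 808 and 992 CPM (-6.70), with Cox7a1 (-6.27) and Cox8b (-6.19) close by. The smallest, that of Ndufb2, was -1.79.

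Genes of the mitochondrial genome had smaller differences than the nuclear ones. Of 10 tested 3 were lower and none was higher (median -0.55), beside 21.5% lower and 19.4% higher among all genes tested. The lower ones were mt-Nd1, mt-Nd6 and mt-Nd3, of which mt-Nd3 had 1 count in the 3 fibroblast libraries together and 0.870 to 1.54 CPM in the hearts. DESeq2 called 5 of the 10 lower. mt-Co1, a cytochrome c oxidase subunit, stood at 32756, 34046 and 21580 CPM in fibroblasts and 38350, 33026 and 46659 CPM in hearts, so that the groups overlapped (-0.42, adjusted p = 0.22). mt-Nd1, of complex I, was at 14637, 18475 and 13336 CPM against 27006, 20705 and 22562 CPM (-0.60, adjusted p = 0.0453), and this call was lost in 10 of the alternative settings. Mitochondrial transcripts took 9.05, 9.18 and 6.15% of fibroblast counts and 12.03, 10.8 and 13.7% of heart counts (exact two-sided permutation p = 0.1, the smallest possible). Their direction depends on the scaling: with an offset for exonic length, mt-Nd1 was higher by 0.83 (adjusted p = 0.0120) and mt-Cytb by 1.04 (adjusted p = 0.0081), and the list then had 3 higher and 1 lower. mt-Co2, mt-Co3 and mt-Nd3 were listed near 0 in both groups, which is uncertain for transcripts of this genome.

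Fuel genes were lower as a group. Of 27 genes of fatty acid uptake and oxidation 24 were lower and none higher (median -3.17). Fabp3, the fatty acid binding protein of heart muscle, stood at 24.9, 4.98 and 11.3 CPM in fibroblasts and 1151, 1110 and 1854 CPM in hearts (-6.64), and Acadm, a dehydrogenase of β-oxidation, at 40.3, 42.0 and 27.8 CPM against 563, 498 and 575 CPM. Lpl, lipoprotein lipase, which frees fatty acids from lipoproteins, was abundant in both groups (means of 899.9 and 1240.1 CPM) and was not called, nor was Cpt1a, the carnitine palmitoyltransferase isoform of non-muscle tissue. Of 24 genes of glucose uptake and glycolysis 20 were lower and none higher (median -2.46). Aldoa, an aldolase, was at 305, 338 and 261 CPM against 3305, 2367 and 2659 CPM, and Gapdh at 194, 274 and 242 CPM against 2305, 1747 and 1591 CPM. The muscle isoforms Pgam2 (-6.69) and Eno3 (-6.01) were lower by the largest amounts, and Slc2a3, Eno2, Pgam1 and Aldoc were not called. Gapdh and some other members have many processed pseudogenes, which can take reads from them in both groups.

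**Figure D3:**
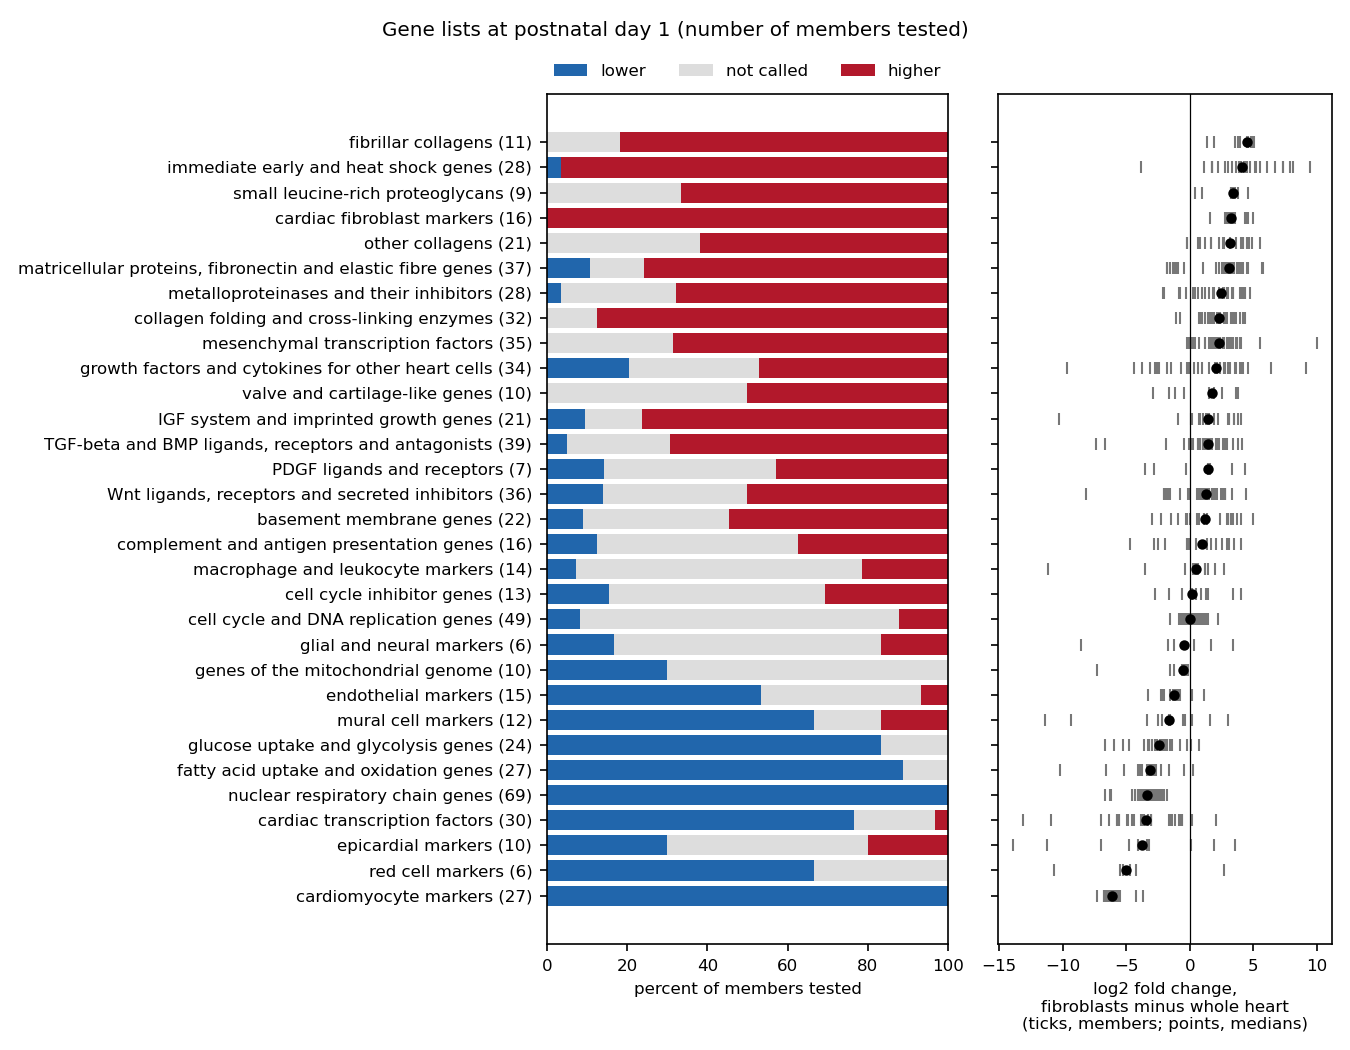
For each gene list (number of members tested in parentheses), the left panel gives the percent of members called higher, called lower or not called, and the right panel the log2 fold change of each member (ticks) with the list's median (point). Fibrillar collagens and immediate early genes have the highest medians, 4.48 and 4.13, and cardiomyocyte markers the lowest, -6.13, with all 27 members called lower.

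Few proliferation genes were called between the newborn fibroblasts and the newborn heart. Of 49 cell cycle and DNA replication genes 6 were higher, 4 were lower and 39 were not called, with a median log2 fold change of 0.04 beside -0.08 for all genes, of which 19.4% were higher and 21.5% lower. Ccnd1, cyclin D1, which takes cells into the cycle, was the exception in size, at 430.5, 518 and 441 CPM against 63.9, 119.9 and 124 CPM (2.17 ± 0.26). Mki67, the Ki-67 protein of cycling cells, stood at 179.8, 290.3 and 217 CPM against 84.2, 113 and 94.8 CPM (1.23 ± 0.21, adjusted p = 0.00217), and Mcm4, Foxm1 and Cenpe were higher by 1.42, 1.15 and 1.12. The mitotic genes Ccnb1, Cdk1, Plk1 and Top2a were not called (-0.41, -0.12, -0.30 and 0.44), and Aurka, a mitotic kinase, was lower (9.19, 6.35 and 4.99 CPM against 17.2, 18.8 and 24.0 CPM). Ccnd2 was lower and Ccnd3 higher by less than 1 on the log2 scale, and the call of Ccnd3 was lost in 10 alternative settings and that of Ccnd2 in 5. The number of genes called higher in this list was 2 in a fit of all 27 libraries. The number called lower was 1 without fibroblast library 3, heart library 2 or heart library 3, and also 1 in the fit of all 27 libraries, where the call of Aurka was lost (adjusted p = 0.349). Mcm4 lost its call without heart library 2 (adjusted p = 0.0545). Of 13 inhibitors 4 were higher and 2 lower. Cdkn1c, the imprinted p57 gene, was at 292, 424 and 440.2 CPM against 175, 156 and 99.4 CPM (1.43). Gas1 and Btg2 were higher by 3.39 and 3.98, and Ccng1 was lower by 2.71 on the log2 scale. Btg2 is also a member of the immediate early and heat shock list above.

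Complement and antigen presentation genes were split, 6 of 16 higher and 2 lower (median 0.91), beside 19.4% and 21.5% of all genes tested. B2m, the light chain of MHC class I, stood at 389, 374 and 435 CPM against 129.7, 102 and 144 CPM, whereas the class I heavy chains H2-K1 and H2-D1, which are paralogs, were not called (-0.26 and -0.25). Serping1, the C1 inhibitor, was higher by 3.09. The central component C3 was lower, at 18.7, 7.35 and 6.87 CPM against 77.1, 104 and 53.0 CPM (-2.82, adjusted p = 0.00174). The other lower gene was H2-Aa, a class II chain of antigen-presenting cells, at 0.0818, 0.115 and 0.0824 CPM against 4.71, 0.592 and 2.00 CPM (-4.68, adjusted p = 0.0232). Its call was lost without fibroblast library 3, heart library 1 or heart library 3 (adjusted p = 0.0504 to 0.0809), and in the fit of all 27 libraries 4 genes of the list were lower.

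The genes lowest in fibroblasts by fold were mostly at zero there. Of the 12 with the largest fall by the same rule, Msln, Lpar3, Ankrd63, Eml5, Irx1, Zfp612 and Zfp958 had no count in the 3 fibroblast libraries, at mean levels of 10.4 to 29.0 CPM in the hearts. Lpar3, a receptor for lysophosphatidic acid, stood at 20.4, 29.8 and 32.5 CPM in the hearts, at least 593-fold higher there than in the fibroblasts at that floor. Abcc8, the sulphonylurea receptor subunit of a potassium channel, had 2 counts in the fibroblasts and 52.3, 48.7 and 42.2 CPM in the hearts, a ratio of 4651 with an interval of 1287 to 38410 that covers counting error only. Cidea, a lipid droplet protein, Sh2d4a, Cnn1 (calponin, of smooth muscle) and the mast cell protease Tpsb2 had 1 count each. The part of the uneven fibroblast libraries in these values was not tested.

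The same comparison was made at 4 weeks, with 3 libraries in each group. There, 3529 of 17651 genes (20%) were higher and 3374 (19.1%) lower in fibroblasts, and the fold change itself differed between the ages for 947 genes (5.37%, interaction in edgeR): it was larger at day 1, in the sense of fibroblast minus heart, for 574 (3.25%) and smaller for 373 (2.11%). Of these calls 60.6% were positive, a share that was 19% with scaling by library size alone and 78.8% with an offset for exonic length, so the balance of directions depends on the scaling. Fibrillar collagens had medians of 4.48 at day 1 and 4.41 at 4 weeks, and none of the 11 genes had an interaction that passed the test, though 1 did without heart library 3 of day 1 and 1 with scaling by library size. Fibroblast markers had medians of 3.25 and 3.80, and only Pi16 among the 16 differed, by -2.15 (adjusted p = 0.00184): its fold change was 3.69 at 4 weeks. The number that differed was 2 without fibroblast library 1 of day 1 and 5 with scaling by library size. In fibroblasts Pi16 stood at 29.3 to 30.1 CPM at day 1 and 2157 to 2365 CPM at 4 weeks, both on the scaling of these 12 libraries.

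Cardiomyocyte markers were more deeply depleted at 4 weeks, with a median log2 fold change of -9.28. Of 27, 21 had a larger value at day 1 and 1, Tnni1, a smaller one. Myh6 differed by 4.76 ± 0.51 (adjusted p = 0.000267): on the scaling of the 12 libraries it was at 196 to 295 CPM in fibroblasts of day 1 and 16.6 to 45.4 CPM at 4 weeks, and at 12389 to 16067 CPM and 32947 to 42611 CPM in the hearts. Fibroblast levels of the 27 genes were thus a median of 1.42% of the heart level at day 1 and 0.161% at 4 weeks. Tnni1, the fetal slow skeletal troponin I, stood at 1786 to 1903 CPM in the hearts of day 1 and at 0.565 to 3.87 CPM in those of 4 weeks, and its difference was -6.60 at day 1 and -1.22 at 4 weeks.

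Respiratory genes showed the same age pattern. Nuclear genes had a median of -3.37 at day 1 and -4.53 at 4 weeks, and 38 of 69 had a larger value at day 1 and 2 a smaller one. The 38 depended on single libraries and on the scaling: 12 passed the test without heart library 2 of day 1, 15 without heart library 3, 22 and 23 without fibroblast library 1 or 2 of 4 weeks, and 8 with scaling by library size. The smaller values numbered 0 or 1 in all fits without 1 library except that without heart library 2 of 4 weeks. Genes of the mitochondrial genome had medians of -0.55 and -3.45, and 7 of 10 differed. mt-Co1 was at 19121 to 30261 CPM in fibroblasts and 29883 to 42279 CPM in hearts at day 1, but at 6770 to 13090 CPM and 82726 to 126956 CPM at 4 weeks, an interaction of 3.04 ± 0.43 (adjusted p = 0.00185).

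Growth and matrix genes divided by age. Igf2 and H19 were higher in fibroblasts at day 1 but lower at 4 weeks (-0.95 and -1.65), with interactions of 2.27 ± 0.29 and 2.32 ± 0.27. Their levels in both tissues at 4 weeks were a small part of those at day 1: Igf2 was at 76.5 to 126 CPM in fibroblasts and 164 to 200.4 CPM in hearts. Igf1 went the other way, with a fold change of 1.25 at day 1 and 3.66 at 4 weeks (interaction -2.43, adjusted p = 0.0111). Eln had 2.08 and 4.19 (interaction -2.12), Vcan, versican, 3.26 and 5.34, and Timp1 0.44 and 4.43. In matricellular and elastic fibre genes as a list, 10 of 37 had smaller and 1 had a larger value at day 1 (none larger with scaling by library size). Notch3 reversed, from 2.97 at day 1 to -0.82 at 4 weeks (interaction 3.77 ± 0.38), and C3 reversed in the opposite sense, from -2.82 to 3.96.

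Immediate early genes were also high in fibroblasts sorted at 4 weeks. Fosb had a fold change of 9.41 at day 1 and 10.01 at 4 weeks, and its interaction was not called (-0.61, adjusted p = 0.154), nor was that of Fos (-1.42, adjusted p = 0.0959). The isolation steps were shared by both ages. Of 49 proliferation genes 1 had a larger and 1 a smaller value at day 1, against 3 larger without fibroblast library 3 of 4 weeks and 6 smaller with scaling by library size. Mki67 differed by 0.19 (adjusted p = 0.944), while its level was 161 to 258 CPM at day 1 and 21.5 to 68.8 CPM at 4 weeks in fibroblasts, and 74.4 to 102 CPM and 7.96 to 36.3 CPM in hearts. In neither tissue did the libraries of the ages overlap.

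**Figure D4:**
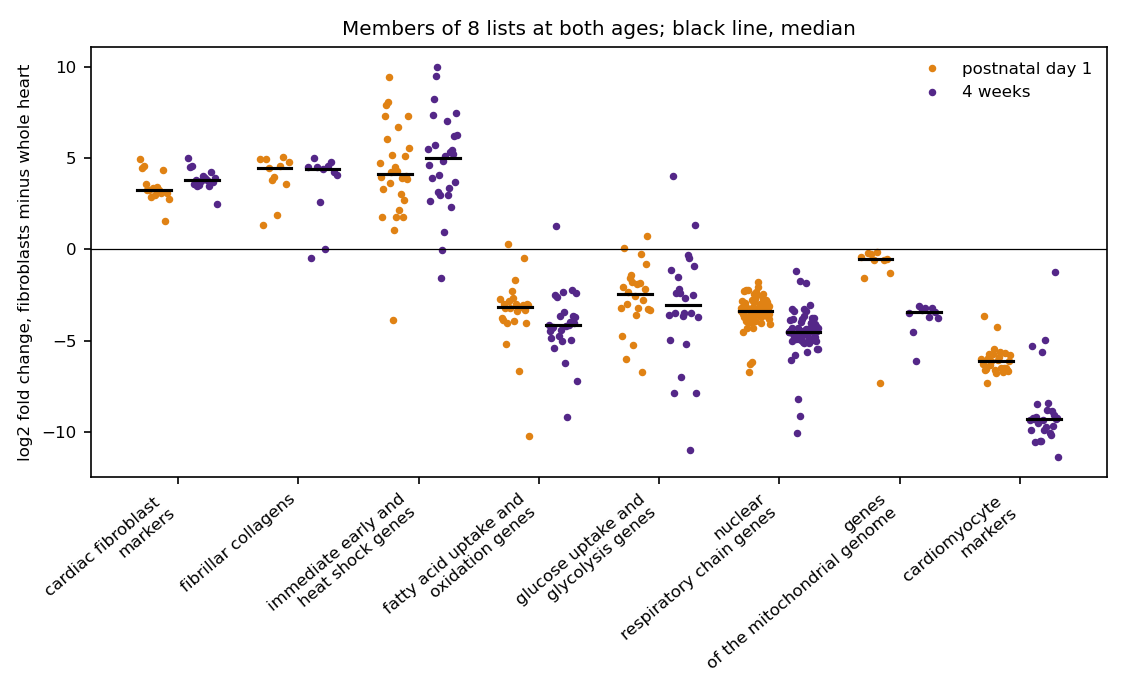
Log2 fold change of fibroblasts against whole heart (y axis) for the members of 8 gene lists at postnatal day 1 and at 4 weeks; each point is a gene and the black lines are medians. Fibrillar collagens have nearly the same median at both ages (4.48 and 4.41), whereas cardiomyocyte markers go from -6.13 to -9.28 and genes of the mitochondrial genome from -0.55 to -3.45.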

How the data were processed

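RNA of sorted fibroblasts and whole hearts was sequenced as single-end 65 bp reads after poly(A) selection. The deposited files hold raw counts per gene, which the authors made by aligning reads to mm10 with STAR (2.5.3a in the submitters' processing notes) and its gene counting. The strand setting and annotation are not given in the sources used here. The 2 count tables were joined by gene symbol (22855 genes). edgeR 4.0.16 in R 4.3.3 fitted the 6 libraries after its expression filter and TMM scaling with the quasi-likelihood test, and the 12 libraries of day 1 and 4 weeks with an interaction of tissue and age. A gene was called at an adjusted p below 0.05 over all genes tested. The edgeR and DESeq2 fits were tested on simulated counts. Mean levels are given with SD and fold changes with SE. A group with no count was set to 3 counts per library, and a group with 1 to 9 counts was given a ratio with a 95% interval. Both cover counting error only, since reads without molecular identifiers are not independent molecules. By the study's methods the libraries of each group come from 3 animals or 3 fibroblast sets from different hearts. Each library of day 1 held both Xist and Ddx3y, and whether a library stands for a single pup or several cannot be told here. The paper states that fibroblasts and their hearts of origin were both sequenced, so the groups may be paired. Whether a shared replicate number marks a shared heart is not given in the sources used here. The main fit was therefore unpaired, and the replicate block was run as an alternative. Coordinates were matched by symbol for 21796 genes (95.37%). Genes named were the markers, the 12 largest changes in each direction (no overlap between groups, a mean of at least 10 CPM in the higher group, clone names left out), the most abundant and most changed members of each list, the members called against the direction of their list, the most abundant genes of each group, and the largest age interactions. Further members were named to show a list whole. Members and lists were chosen with earlier results of these data known. Alternatives were DESeq2 1.42.0, other scalings and filters, a fit of all 27 libraries, a replicate block, a 2-fold minimum, removal of mitochondrial genes, each library left out and, chosen after seeing the data, an offset for exonic length. No per-sample column was left unmapped.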

Additional observations from a re-analysis of the deposited data

Results flagged for a closer look

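The results in this paragraph were listed because the fibroblast-to-heart difference itself differed between day 1 and 4 weeks (edgeR quasi-likelihood interaction, adjusted p below 0.05); each value is the log2 difference at day 1 minus that at 4 weeks. Genes named earlier gave 4.76 for Myh6, 3.04 for mt-Co1, 2.90 for mt-Nd5, 2.81 for mt-Cytb, 2.70 for mt-Nd1 and 2.74 for Sele. The call for Sele was lost in 6 of the alternatives.

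The largest values belonged to genes with almost no counts in one of the groups, so that the fitted numbers depend on the prior count and are not bounds. On the positive side these were Itgb6 (10.77), Kcnd3 (9.96), Lgr6 (9.89), Adrb1 (9.56) and Osbp2 (9.12). In each of them the fibroblasts of 4 weeks had 0 to 0.0269 CPM, while the hearts of 4 weeks had 9.09 to 67.0 CPM. Lgr6, a receptor for R-spondins, stood at 4.08, 2.93 and 3.52 CPM in the fibroblasts of day 1 and at 0, 0.0267 and 0.0134 CPM in those of 4 weeks. Itgb6 lost its call with DESeq2, with the replicate block and without fibroblast library 1 of day 1.

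On the negative side they were Zfp958 (-10.99), Cnn1 (-9.72), Eml5 (-9.52), Itih2 (-9.34), Stmn4 (-9.30) and Sh2d4a (-8.68), all with 0 or 1 count over the 3 fibroblast libraries of day 1. Itih2 and Stmn4 were at 13.0 to 16.9 CPM and 13.4 to 24.3 CPM in the fibroblasts of 4 weeks. The calls of Cnn1, Eml5 and Itih2 were lost in 11, 12 and 11 alternatives, several of which left out a single library.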

How the results depend on the processing

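At day 1 the main counts of 3103 higher and 3448 lower genes stayed within 1.5 times under each alternative run: 2505 to 2939 higher and 2897 to 3597 lower with 1 library left out, 2726 and 3809 with scaling by library size, 2807 and 3863 in the fit of all 27 libraries, 3470 and 3814 with DESeq2. The median of all genes moved by -0.128 with library size alone and by 0.184 with the exonic length offset. That offset was tried because the log2 fold change rose with exonic length (a rank correlation of 0.207 over 14216 genes, given as a description since genes are not independent). It reversed mt-Cytb (1.04, adjusted p = 0.0081), mt-Nd1 (0.83, adjusted p = 0.0120) and mt-Nd6 (0.36, adjusted p = 0.221); the cause was not tested. The shares of counts kept their direction under each alternative, with an exact permutation p of 0.1 throughout, the smallest that 3 against 3 allows. A share within a library does not depend on scaling or on the fit, and the groups did not overlap. This outcome therefore adds no support. Of the values of named genes at day 1, 81 fell short of the threshold under an alternative, 12 newly passed it and 2854 kept their call.

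The counts of age interactions were less stable. Against 574 larger and 373 smaller values at day 1, DESeq2 gave 1227 and 831, library size alone 282 and 1202, the exonic length offset 1018 larger and the fit of all 27 libraries 657 smaller; the cause was not tested. Leaving out 1 library gave 325 to 582 larger and 191 to 401 smaller values: 325 and 191 without heart library 2 of day 1, 366 and 237 without heart library 3, and 248 smaller without fibroblast library 1 of 4 weeks.

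With a replicate block, 2724 genes were higher and 2668 lower at day 1, and 330 and 190 had interactions. Deviations of libraries with the same number correlated at -0.0249, 0.0129 and -0.0196. Fibroblasts and whole heart need not deviate alike, so these values cannot decide whether a shared number marks a shared heart. The block also took the call from mt-Nd3 (adjusted p = 0.077), Igfbp2 (0.0563), Fgf12 (0.0767) and H2-Aa (0.149), left no IGF or imprinted gene lower, and gave 20 rather than 38 nuclear respiratory genes a larger value at day 1. Over both comparisons and all gene lists, 314 counts of called members moved by more than 1.5 times under an alternative and 2086 did not. Of 3448 genes called lower, 723 had at most 9 counts over the 3 fibroblast libraries.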
